A study of Mus musculus with 14 samples.

Results

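The proteasome genes described here were the 47 genes on the array whose symbol starts with Psma, Psmb, Psmc, Psmd, Psme, Psmf or Psmg, out of 19938 genes tested. The interferon-induced catalytic subunits Psmb8, Psmb9 and Psmb10 were left out of the set and are given beside it. The proteasome is the protease complex that degrades ubiquitin-tagged proteins. Its 20S core particle is a barrel of alpha rings, which gate the entrance, and beta rings, which hold the proteolytic sites. The 19S regulatory particle caps the core, where its ATPase ring unfolds substrates and its non-ATPase subunits bind and remove ubiquitin. In macrophages, microglia among them, the complex also makes the peptides that MHC class I presents and clears the inhibitor that holds NF-kappaB in the cytoplasm. By role, the set held 8 alpha-ring genes, 8 beta-ring genes, 6 genes of 19S ATPases, 11 of 19S non-ATPase subunits, 4 of activators that open the core in place of the 19S particle, 7 of assembly chaperones, and 2 of an inhibitor and an activator-binding regulator. The last gene, Psmc3ip, matched by its symbol alone. It encodes a meiotic recombination protein and is no part of the proteasome.

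The study profiled microglia, the resident macrophages of the brain, sorted from the operated side of the cortex of male mice aged 12 to 14 weeks. The mice received either I/R (ischaemia and reperfusion), in which a filament blocked the middle cerebral artery for 15 min and blood flow was then restored for 72 h, or a sham operation, all under isoflurane. The 14 arrays, Affymetrix Mouse Gene 1.0 ST, fell into TLR4-/- I/R (arrays B, C and D), TLR4-/- sham (arrays A, B and D), wild-type I/R (arrays A to D) and wild-type sham (arrays A to D). TLR4 senses bacterial lipopolysaccharide and molecules that damaged cells release, and TLR4-/- mice lack it. Both genotypes were on the C57BL/6J strain. The sources used here do not give the making of the TLR4-/- allele or the markers of the sort, and they leave the letters IPC in the titles of the I/R samples unexplained. Nothing in the labels says that each array came from an animal of its own, so the p-values rest on the spread among these samples, part of which may be technical.

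Signals are log2 values after robust multi-array averaging (RMA), and a difference of 1 is a doubling. Of the 47 genes, 46 had a mean signal above the 95th percentile of 1027 olfactory receptor genes (4.67), used as a stand-in for background. The exception was Psmb11 at mean signals of 4.53 to 4.76 in the 4 groups, the core subunit known from the thymus. All 11 measured microglial markers were above that level, with array means of 10.83 to 10.96 in TLR4-/- I/R, 11.26 to 11.35 in TLR4-/- sham, 10.82 to 11.04 in wild-type I/R and 11.26 to 11.31 in wild-type sham. The Tlr4 row had log2 signals of 7.62 to 8.40 in TLR4-/- I/R, 8.15 to 8.47 in TLR4-/- sham, 8.14 to 8.48 in wild-type I/R and 8.57 to 8.92 in wild-type sham. Where its probes lie relative to the altered part of the gene is unknown here, and its signal was not used to check the genotypes. Wild-type sham array C stood apart for the proteasome genes. Their median deviation from each gene's mean over the 14 arrays was -0.46 there, against -0.07 to 0.03 on the other wild-type sham arrays. Over all genes, this array correlated at 0.9872 to 0.9916 with the TLR4-/- sham arrays and at 0.9814 to 0.9865 with its own group. TLR4-/- I/R array D correlated at 0.9901 to 0.9915 with the wild-type I/R arrays, and at 0.9851 and 0.9898 with its own group. Whether the genotype labels of these 2 arrays are right was not tested, since no value used here checks the genotype. The counts of calls and the median genotype differences of the set are given with and without them. Most other counts and medians are given with all arrays alone.

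Promoter sequence is shown for 4 genes picked from those described below: the paired activators Psme1 and Psme2, the chaperone Psmg4 and the catalytic Psmb5. Each window runs from 250 bases before to 50 bases after the annotated start and comes from RefSeq, build GRCm38.p6, printed 5′ to 3′ on the gene's strand. Psme1 lies on the plus strand at chr14:55578244-55578543, Psme2 on the minus strand at chr14:55591052-55591351, Psmg4 on the plus strand at chr13:34162714-34163013 and Psmb5 on the minus strand at chr14:54617946-54618245. Capitals in Psme1 and Psmg4 mark a match to the interferon-stimulated response element, searched on both strands as GAAA, then any 2 bases, then GAAA. Capitals in Psmb5 mark a match to the antioxidant response element, the site of the transcription factors NRF1 and NRF2, searched as TGACNNNGC on both strands. Psme2 held neither.
Psme1: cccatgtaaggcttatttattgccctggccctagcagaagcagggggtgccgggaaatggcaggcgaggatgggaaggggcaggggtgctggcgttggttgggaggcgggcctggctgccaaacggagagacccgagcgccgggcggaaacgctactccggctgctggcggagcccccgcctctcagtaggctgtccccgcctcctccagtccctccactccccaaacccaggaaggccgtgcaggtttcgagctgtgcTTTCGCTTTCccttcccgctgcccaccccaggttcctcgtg
Psme2: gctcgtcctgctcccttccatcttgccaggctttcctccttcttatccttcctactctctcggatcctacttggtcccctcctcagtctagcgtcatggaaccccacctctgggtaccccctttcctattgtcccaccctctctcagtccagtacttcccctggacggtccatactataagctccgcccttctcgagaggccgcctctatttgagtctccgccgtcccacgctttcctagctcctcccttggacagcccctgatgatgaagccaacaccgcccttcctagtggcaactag
Psmg4: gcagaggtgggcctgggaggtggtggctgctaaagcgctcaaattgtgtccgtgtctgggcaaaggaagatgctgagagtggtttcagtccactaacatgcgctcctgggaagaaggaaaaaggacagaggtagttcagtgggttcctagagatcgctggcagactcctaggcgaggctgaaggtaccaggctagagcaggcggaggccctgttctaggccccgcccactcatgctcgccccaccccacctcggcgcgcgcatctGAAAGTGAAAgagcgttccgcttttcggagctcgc
Psmb5: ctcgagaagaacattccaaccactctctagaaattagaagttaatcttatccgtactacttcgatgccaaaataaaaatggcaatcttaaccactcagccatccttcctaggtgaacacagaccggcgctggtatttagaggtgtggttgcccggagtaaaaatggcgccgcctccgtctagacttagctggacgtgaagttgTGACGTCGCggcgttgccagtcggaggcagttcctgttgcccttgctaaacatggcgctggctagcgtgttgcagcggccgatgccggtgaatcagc
Windows were found for 39 of the 47 genes. The interferon-stimulated response element was in the windows of 5 of the 39 (Psmb3, Psmd4, Psmd9, Psme1 and Psmg4), which is 12.8%, against 3.99% of all 27025 genes with a window. In Psme1 the match began at base 10 of the transcript and in Psmg4 at base 16. The antioxidant response element was in 6 of the 39 (Psmb5, Psmb6, Psmc6, Psmd12, Psmd9 and Psme4), 15.4% against 14% of all genes. In Psmb5 it began 47 bases before the start. The windows of Psmb8, Psmb9 and Psmb10 held neither element. These matches describe the letters of the windows, and binding was not measured.

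After I/R the proteasome genes were shifted upward as a group in both genotypes, with Psme2, an activator gene, at the top in TLR4-/- (2.19-fold). Among TLR4-/- arrays, 12 of the 47 genes were called higher after I/R than after sham (limma, adjusted p under 0.05 over all genes), against a background of 5.04% of all genes called higher. Among wild-type arrays, 11 were called higher, against a background of 6.15%. A fit of the 12533 genes above the olfactory receptor level called 12 of the 46 in TLR4-/-, against a background of 8.25%, and 11 in wild type, against 9.97%. No gene of the set was called lower in either genotype, where 3.13% of all genes in TLR4-/- and 3.63% in wild type were. The median log2 change over the 47 genes was 0.40 in TLR4-/- and 0.33 in wild type, while that over all 19938 genes was -0.03 in TLR4-/- and -0.06 in wild type. The change was above 0 for 44 of the 47 genes in TLR4-/-, against 43.8% of all genes, and for 45 in wild type, against 37.2%. Every I/R array lay above every sham array for 26 of the 47 genes in TLR4-/-, where 11.1% of all genes did so, and for 13 in wild type, where 7.78% did. The shares for changes above 0 and for separate arrays include dim genes. Groups of 3 arrays separate by chance more often than groups of 4, so 26 and 13 cannot be compared directly.

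By role, 7 of the 16 core genes were called higher in TLR4-/-, with a median log2 change of 0.50, and 5 in wild type, with a median of 0.35. Of the 17 genes of the regulatory particle, 3 were called in each genotype, with medians of 0.37 in TLR4-/- and 0.28 in wild type. Among the 4 activators 1 gene was called in each genotype, and the medians were 0.36 in TLR4-/- and 0.31 in wild type. The 7 chaperones also had 1 call in each, with medians of 0.43 in TLR4-/- and 0.32 in wild type. Beside these counts, 5.04% of all genes were called higher in TLR4-/- and 6.15% in wild type. Without dim genes the shares were 8.25% in TLR4-/- and 9.97% in wild type. A single call in a role of so few genes cannot be told from these shares. The same shares stand beside the counts by ring and subunit class below. The genes called in both genotypes were 8 in number: Psma1, Psma4, Psma5, Psmb4, Psmd2, Psmd14, Psme2 and Psmg4. They made up 66.7% of the TLR4-/- calls and 72.7% of the wild-type calls. Calls in at least 1 genotype covered 15 genes, and 32 were called in neither. The overlap of calls was not counted over all genes, so it cannot be read as a trait of this set. The 2 comparisons share no arrays but use 1 estimate of the spread.

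**Figure D1:**
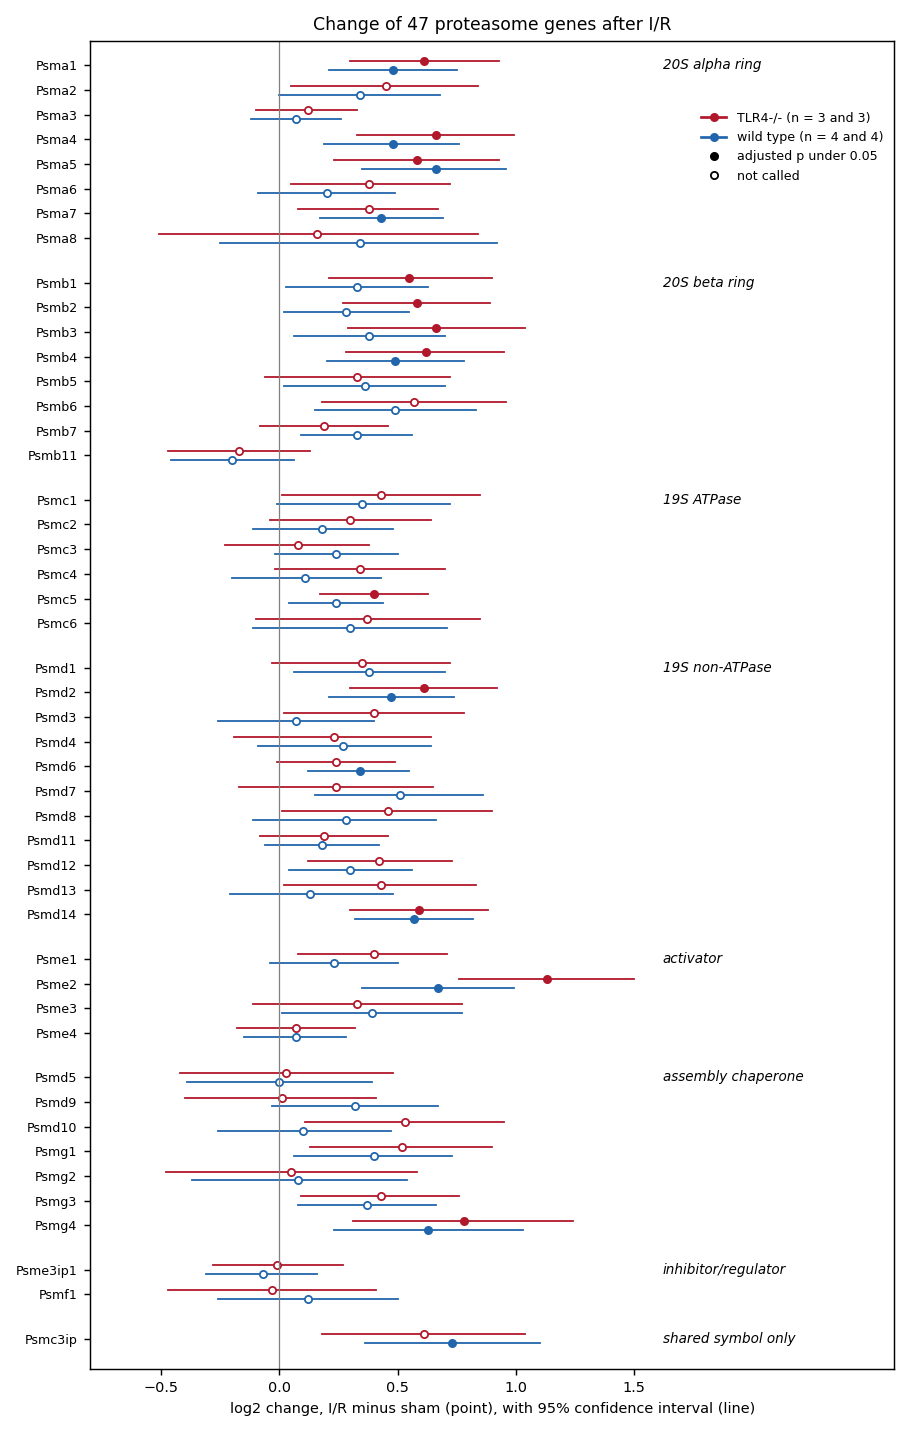
Log2 change after I/R (I/R minus sham, x axis) of the 47 genes by role, with 95% confidence intervals, in TLR4-/- (red, 3 arrays against 3) and wild type (blue, 4 against 4). Filled points passed an adjusted p of 0.05. The points lie to the right of 0 for 44 genes in TLR4-/- and 45 in wild type, and Psme2 in TLR4-/- lies farthest right at 1.13.

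The counts of calls were sensitive to single arrays. In wild type 4 genes were called without sham array C (Psma5, Psmc3ip, Psmd14 and Psme2), and the median log2 change over the set was then 0.21, with 40 of 47 above 0. Of all 19938 genes, 989 were called higher in that fit. The count was 3 without I/R array D, 4 without I/R array C, 6 without I/R array A, 6 without I/R array B and 7 without sham array B. Over all genes these fits called 931, 983, 1001, 1149 and 1111 higher, in the same order. In TLR4-/- the count was 1 without I/R array C (Psme2), 3 without sham array A, 4 without sham array B and 4 without I/R array D. Over all genes these fits called 738, 658, 784 and 774 higher, in the same order. Where 1, 3 or 4 genes were called, the share of the set was not clearly above that of all genes. Psmc3ip, no part of the proteasome, was among the 4 called in wild type without sham array C and without I/R array C. Without wild-type sham array C and TLR4-/- I/R array D together, 10 genes were called in TLR4-/- and 3 in wild type (Psma5, Psmd14 and Psme2). Over all genes, 961 were then called higher in TLR4-/- and 1009 in wild type. Of the TLR4-/- calls, those of Psmb1, Psmc5 and Psmg4 were lost in that fit, and Psmd12 was called besides (adjusted p = 0.026, limma). The core median stayed between 0.44 and 0.60 in TLR4-/- and between 0.24 and 0.43 in wild type in every fit that left out arrays. The median over the regulatory particle lay below the core median of its genotype in each of them, between 0.27 and 0.45 in TLR4-/- and between 0.16 and 0.34 in wild type. Its lowest wild-type value, 0.16 against 0.28 with all arrays, was that without sham array C.

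**Figure D2:**
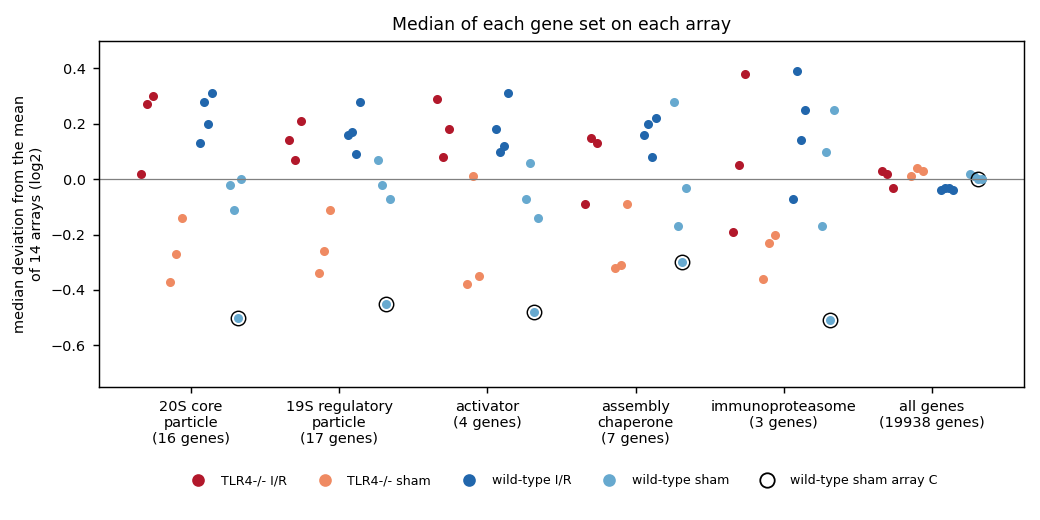
Median deviation of each gene set from the gene means over 14 arrays (log2, y axis), with 1 point per array, for the proteasome sets, the 3 immunoproteasome genes and all genes. Wild-type sham array C (circled) lies at -0.50 for the core and -0.45 for the regulatory particle and at 0.00 for all genes.

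Of the 8 alpha-ring genes, 3 rose in TLR4-/- and 4 in wild type. Psma1, an alpha-ring subunit, had log2 signals of 10.08, 10.43 and 10.47 on the TLR4-/- I/R arrays, against 9.79, 9.40 and 9.95 on the TLR4-/- sham arrays. On the wild-type arrays it had 10.40, 10.39, 10.38 and 10.49 after I/R, against 10.03, 9.97, 9.73 and 10.03 after sham. The groups did not overlap in either genotype. Its log2 change was 0.61 ± 0.15 (SE) in TLR4-/- (adjusted p = 0.0152, limma) and 0.48 ± 0.13 in wild type (adjusted p = 0.0244, limma). Psma4 had 10.05, 10.21 and 10.12 on the TLR4-/- I/R arrays, against 9.34, 9.27 and 9.80 on the TLR4-/- sham arrays. In wild type it had 10.03, 10.04, 10.03 and 10.27 after I/R, against 9.80, 9.68, 9.28 and 9.70 after sham. I/R and sham arrays of Psma4 were separate in both genotypes, with I/R array D the highest in wild type. Its log2 change was 0.66 ± 0.16 in TLR4-/- (adjusted p = 0.0133, limma) and 0.48 ± 0.13 in wild type (adjusted p = 0.0331, limma).

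Psma5, the alpha5 subunit, was at 9.38, 9.74 and 9.69 on the TLR4-/- I/R arrays, against 9.11, 8.85 and 9.11 on the TLR4-/- sham arrays. The wild-type arrays were at 9.65, 9.81, 9.70 and 9.83 after I/R, against 9.36, 9.16, 8.62 and 9.21 after sham. No sham array reached an I/R array of its genotype, and sham array C was the lowest of all. Psma5 rose by 0.58 ± 0.17 in TLR4-/- (adjusted p = 0.0396, limma) and by 0.66 ± 0.14 in wild type (adjusted p = 0.00643, limma). Psma7, another alpha-ring subunit, was at 10.01, 10.36 and 10.30 on the TLR4-/- I/R arrays, against 9.74, 9.83 and 9.98 on the TLR4-/- sham arrays. In wild type Psma7 was at 10.35, 10.22, 10.25 and 10.46 after I/R, against 10.08, 9.88, 9.60 and 10.00 after sham. Psma7 was separate between I/R and sham in both genotypes but was called in wild type alone. Its log2 change was 0.38 ± 0.14 in TLR4-/- (adjusted p = 0.121, limma) and 0.43 ± 0.12 in wild type (adjusted p = 0.032, limma). The 4 other alpha-ring genes had log2 changes of 0.12 (Psma3) to 0.45 (Psma2) in TLR4-/- and 0.07 (Psma3) to 0.34 (Psma2 and Psma8) in wild type. Psma8, the testis form of an alpha subunit, was the most variable of the ring within 3 of the 4 groups, with mean signals of 6.56 ± 0.54 in TLR4-/- I/R, 6.40 ± 0.09 in TLR4-/- sham, 6.57 ± 0.25 in wild-type I/R and 6.23 ± 0.70 in wild-type sham (SD).

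Among the alpha-ring calls, that of Psma5 in wild type held without each array in turn (adjusted p 0.00334 to 0.0248). Psma1 lost its call in TLR4-/- without I/R array C, I/R array D or sham array B (adjusted p up to 0.0793), and in wild type without sham array C or 1 of I/R arrays A, C and D (up to 0.0775). Psma4 lost it in TLR4-/- without I/R array C or sham array A or B (up to 0.0698), and in wild type without any of the 4 I/R arrays or sham array B or C (up to 0.115). Psma5 lost it in TLR4-/- without I/R array C or D, any of the 3 sham arrays or wild-type I/R array A, B or C (up to 0.148). Other settings also ended TLR4-/- calls: that of Psma5 with arrays centred on their median (0.0529) or on the median of all rows (0.0599), and that of Psma1 in a fit of only the groups compared (0.0622). Psma7 lost its wild-type call without sham array B or C or 1 of I/R arrays A, C and D (up to 0.107). The other row of Psma5 on the array had log2 changes of 0.77 in TLR4-/- and 0.52 in wild type. Psma3 was read by 3 rows, each with a log2 change of 0.12 in TLR4-/- and of 0.07 to 0.09 in wild type. Genes with several rows may share probes with near-identical copies, and probe positions were not used here, so their values are uncertain to that extent.

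Of the 8 beta-ring genes, 4 rose in TLR4-/- and 1 in wild type. Psmb4, a structural subunit of the ring, rose in both. It had 9.82, 10.09 and 10.13 on the TLR4-/- I/R arrays, against 9.18, 9.38 and 9.64 on the TLR4-/- sham arrays. In wild type Psmb4 had 9.91, 10.07, 10.14 and 10.27 after I/R, against 9.68, 9.59, 9.31 and 9.88 after sham. The I/R arrays lay above the sham arrays in both genotypes, by a gap of a few hundredths between the nearest arrays in wild type. The log2 change of Psmb4 was 0.62 ± 0.16 in TLR4-/- (adjusted p = 0.0227, limma) and 0.49 ± 0.14 in wild type (adjusted p = 0.0322, limma).

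Psmb1, Psmb2 and Psmb3, non-catalytic subunits of the ring, were called in TLR4-/- alone. Psmb1 had 9.44, 9.83 and 10.01 on the TLR4-/- I/R arrays, against 9.09, 9.08 and 9.44 on the TLR4-/- sham arrays, which touch at 9.44. In wild type Psmb1 had 9.72, 9.88, 9.78 and 9.88 after I/R, against 9.53, 9.46, 9.20 and 9.76 after sham, with sham array D inside the I/R range. Its log2 change was 0.55 ± 0.16 in TLR4-/- (adjusted p = 0.046, limma) and 0.33 ± 0.14 in wild type (adjusted p = 0.173, limma). Psmb2 had 9.81, 9.84 and 9.96 on the TLR4-/- I/R arrays, against 9.21, 9.34 and 9.33 on the TLR4-/- sham arrays, and these groups were far apart relative to their spread. The wild-type arrays had 9.69, 9.76, 9.81 and 9.94 after I/R, against 9.74, 9.54, 9.10 and 9.69 after sham, and they overlapped. Psmb2 changed by 0.58 ± 0.15 in TLR4-/- (adjusted p = 0.0203, limma) and by 0.28 ± 0.13 in wild type (adjusted p = 0.188, limma). Psmb3 had 9.71, 10.19 and 10.14 on the TLR4-/- I/R arrays, against 9.20, 9.40 and 9.45 on the TLR4-/- sham arrays, without overlap. Its wild-type arrays overlapped, at 9.87, 10.09, 10.04 and 10.15 after I/R against 9.91, 9.48, 9.28 and 9.96 after sham. The log2 change of Psmb3 was 0.66 ± 0.18 in TLR4-/- (adjusted p = 0.0274, limma) and 0.38 ± 0.15 in wild type (adjusted p = 0.142, limma). Its other row changed by 0.78 in TLR4-/- and 0.41 in wild type.

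For these 3 genes, as for Psma7, the difference of the changes between the genotypes was tested and was not called (adjusted p = 1, limma). Psmb2 lost its TLR4-/- call without I/R array C or D or sham array A (adjusted p up to 0.0859). Psmb3 and Psmb4 lost theirs without I/R array C or D or sham array A or B (up to 0.119 for Psmb3 and 0.12 for Psmb4). Psmb1 lost it in 10 of the 14 fits that left out 1 array (up to 0.178): TLR4-/- I/R array C or D, TLR4-/- sham array A or B, wild-type sham array A or B, or any wild-type I/R array. It also lost it with arrays centred on their median (0.0567) or on the median of all rows (0.0579) and in a fit of only the groups compared (0.0929). The wild-type call of Psmb4 was lost without sham array B or C or 1 of I/R arrays B, C and D (up to 0.111).

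The 3 catalytic subunits of the constitutive core were not called in either genotype with all arrays and the settings used throughout, although each was called under at least 1 alternative. Psmb5 carries the chymotrypsin-like site, Psmb6 the caspase-like site and Psmb7 the trypsin-like site. Psmb5 had 9.79, 9.94 and 10.35 on the TLR4-/- I/R arrays, against 9.58, 9.78 and 9.73 on the TLR4-/- sham arrays. In wild type Psmb5 had 10.30, 10.28, 10.23 and 10.17 after I/R, against 9.77, 10.32, 9.44 and 10.02 after sham. The TLR4-/- groups were apart by a hundredth, and in wild type sham array B exceeded every I/R array. Psmb6 averaged 10.50 ± 0.22 in TLR4-/- I/R and 9.94 ± 0.13 in TLR4-/- sham (SD, n = 3 each), and 10.54 ± 0.09 in wild-type I/R and 10.05 ± 0.39 in wild-type sham (SD, n = 4 each). It came nearest to a call of the 3, with log2 changes of 0.57 ± 0.18 (SE) in TLR4-/- (adjusted p = 0.0732, limma) and 0.49 ± 0.16 in wild type (adjusted p = 0.0659, limma). It was called in TLR4-/- with array weights (adjusted p = 0.0296, limma), in a fit of only the groups compared (0.0485) and without wild-type sham array C (0.0181) or D (0.0479), and in wild type with trended and robust variance (0.0484) and without sham array D (0.0195). Psmb7 changed by 0.19 ± 0.13 in TLR4-/- and 0.33 ± 0.11 in wild type, where it was called with arrays centred on the median of all rows (0.0409) and without sham array D (0.0309). Psmb5 changed by 0.33 ± 0.18 in TLR4-/- and 0.36 ± 0.16 in wild type, where it was called without sham array B (0.0472). Psmb11, near background, had -0.17 in TLR4-/- and -0.20 in wild type.

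Psmb8, Psmb9 and Psmb10 are the immunoproteasome subunits that take the places of Psmb5, Psmb6 and Psmb7 in cells exposed to interferon. None of the 3 was called in either genotype. Psmb8 had 8.00, 8.21 and 8.58 on the TLR4-/- I/R arrays, against 7.72, 7.91 and 7.73 on the TLR4-/- sham arrays. In wild type it had 8.21, 8.77, 8.30 and 8.42 after I/R, against 7.97, 8.33, 7.65 and 8.40 after sham. The TLR4-/- arrays were separate and the wild-type arrays overlapped. Its log2 change was 0.48 ± 0.20 in TLR4-/- and 0.34 ± 0.17 in wild type. That of Psmb9 was 0.32 ± 0.17 in TLR4-/- and 0.30 ± 0.15 in wild type. That of Psmb10 was 0.24 ± 0.23 in TLR4-/- and 0.16 ± 0.20 in wild type. Each of these was within the range of the core genes, -0.17 to 0.66 in TLR4-/- and -0.20 to 0.66 in wild type.

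Among the 6 ATPases of the 19S base, which form the ring that unfolds substrates, 1 rose in TLR4-/- and none was called in wild type. The 1 was Psmc5, at 10.03, 10.08 and 10.18 on the TLR4-/- I/R arrays, against 9.72, 9.67 and 9.70 on the TLR4-/- sham arrays. The wild-type arrays read 10.12, 9.95, 10.01 and 10.20 after I/R, against 9.95, 9.82, 9.69 and 9.85 after sham. TLR4-/- groups were separate with a small spread, and wild-type I/R array B met sham array A. Psmc5 changed by 0.40 ± 0.11 in TLR4-/- (adjusted p = 0.0326, limma) and by 0.24 ± 0.10 in wild type (adjusted p = 0.137, limma). Its call was lost without any of the 3 TLR4-/- sham arrays or 1 of TLR4-/- I/R arrays C and D (adjusted p up to 0.102), and in a fit of only the groups compared (0.0906). The other 5 had log2 changes of 0.08 (Psmc3) to 0.43 (Psmc1) in TLR4-/- and 0.11 (Psmc4) to 0.35 (Psmc1) in wild type.

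Of the 11 non-ATPase genes, 2 rose in TLR4-/- and 3 in wild type. Psmd14 encodes the deubiquitylase that strips ubiquitin chains as a substrate enters the core. It had 8.88, 9.03 and 8.97 on the TLR4-/- I/R arrays, against 8.38, 8.27 and 8.46 on the TLR4-/- sham arrays. In wild type Psmd14 had 8.94, 9.11, 8.99 and 9.16 after I/R, against 8.45, 8.79, 8.18 and 8.51 after sham. The I/R arrays lay above the sham arrays in both genotypes, and sham array B was the nearest in wild type. The log2 change was 0.59 ± 0.14 in TLR4-/- (adjusted p = 0.0118, limma) and 0.57 ± 0.12 in wild type (adjusted p = 0.00461, limma), the smallest adjusted p of the set in wild type. The wild-type call held without each array in turn (0.00106 to 0.0206). The TLR4-/- call was lost without I/R array C or sham array B (up to 0.0525).

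Psmd2 is the large scaffold subunit of the base that docks ubiquitin receptors. It had 8.65, 8.89 and 8.86 on the TLR4-/- I/R arrays, against 8.12, 8.24 and 8.20 on the TLR4-/- sham arrays. In wild type Psmd2 had 8.70, 8.81, 8.83 and 8.83 after I/R, against 8.56, 8.28, 7.92 and 8.52 after sham. Groups did not overlap in either genotype, and wild-type sham array C was the lowest. The log2 change of Psmd2 was 0.61 ± 0.15 in TLR4-/- (adjusted p = 0.0142, limma) and 0.47 ± 0.13 in wild type (adjusted p = 0.0245, limma), and a second row read 0.51 in TLR4-/- and 0.47 in wild type. It lost its call in TLR4-/- without I/R array C or D or sham array A (up to 0.0643), and in wild type without sham array B or C or 1 of I/R arrays B, C and D (up to 0.0679) and in a fit of only the groups compared (0.0567). Psmd6, a lid subunit, had 9.41, 9.35 and 9.47 on the TLR4-/- I/R arrays, against 9.11, 9.02 and 9.40 on the TLR4-/- sham arrays. In wild type it had 9.45, 9.46, 9.48 and 9.58 after I/R, against 9.16, 9.28, 9.01 and 9.18 after sham. Its groups overlapped in TLR4-/- and were separate in wild type. Psmd6 changed by 0.24 ± 0.12 in TLR4-/- (adjusted p = 0.28, limma) and by 0.34 ± 0.10 in wild type (adjusted p = 0.0498, limma), a call that was lost in 11 of the 14 fits without 1 array (up to 0.14). It held without wild-type sham array B, TLR4-/- sham array B and TLR4-/- sham array D. With all arrays it was also lost with the replicate block (0.0542), with arrays centred on their median (0.0606), with array weights (0.0526) and in a fit of only the groups compared (0.0555). The 8 other non-ATPase genes had log2 changes of 0.19 (Psmd11) to 0.46 (Psmd8) in TLR4-/- and 0.07 (Psmd3) to 0.51 (Psmd7) in wild type. Psmd7 was called in wild type with the replicate block (0.026) and without sham array A (0.0325). The ubiquitin receptor Psmd4 was among them, at 0.23 ± 0.20 in TLR4-/- and 0.27 ± 0.17 in wild type.

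**Figure D3:**
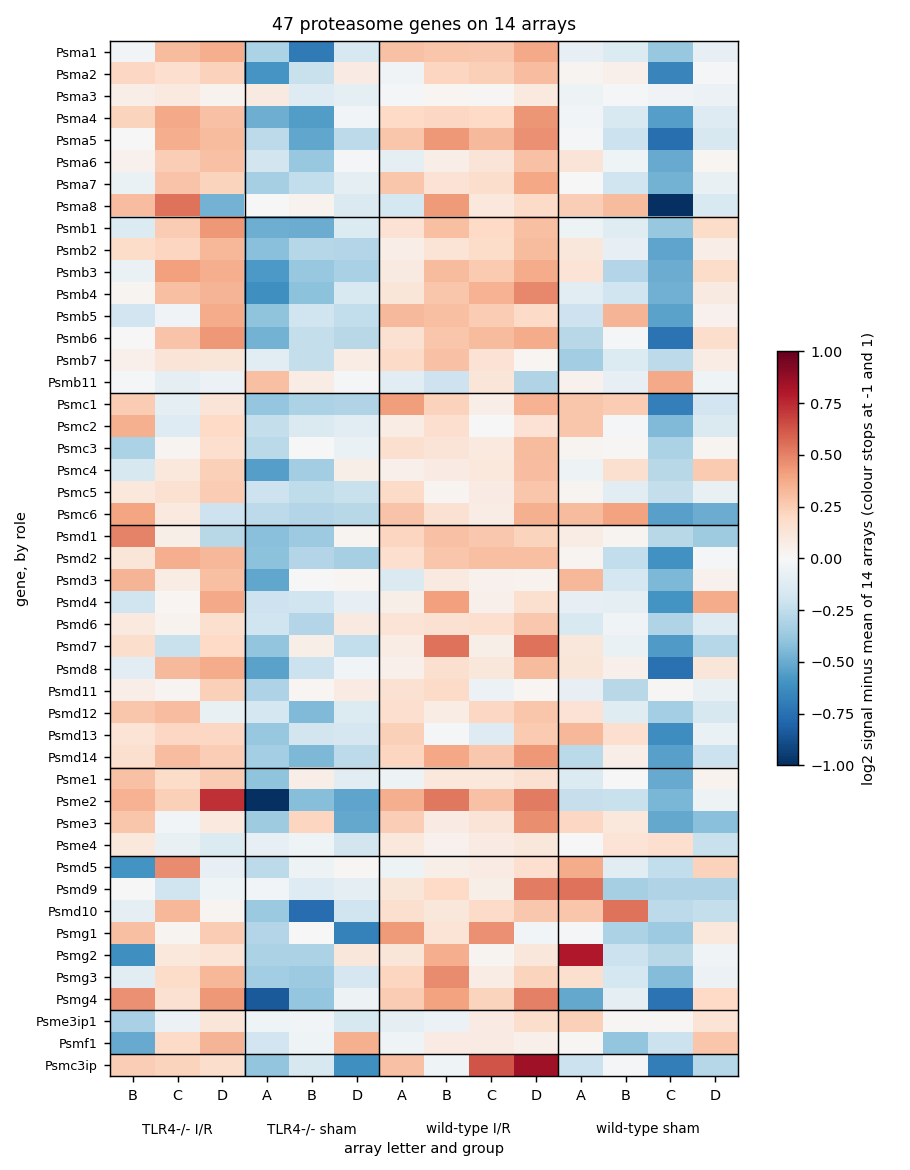
Log2 signal minus each gene's mean over the 14 arrays, for the 47 genes (down the page, by role) on each array (across, by group). Most cells are above 0 on the I/R arrays and below 0 on the TLR4-/- sham arrays, and wild-type sham array C is the lowest of its group for most genes.

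Among the activators, Psme2 had the largest change of the set in TLR4-/- and Psme1 was not called. Psme1 and Psme2 encode the alpha and beta subunits of the PA28 ring, known to be induced by interferon-gamma and to favour the making of MHC class I peptides. Psme2 had 8.75, 8.64 and 9.13 on the TLR4-/- I/R arrays, against 7.29, 7.97 and 7.87 on the TLR4-/- sham arrays. In wild type Psme2 had 8.76, 8.93, 8.69 and 8.92 after I/R, against 8.17, 8.18, 7.94 and 8.35 after sham. The I/R and sham arrays were apart in both genotypes, and TLR4-/- sham array A was the lowest of the 14. Its log2 change was 1.13 ± 0.17 in TLR4-/- (2.19-fold, adjusted p = 0.000444, limma) and 0.67 ± 0.15 in wild type (1.59-fold, adjusted p = 0.00791, limma). Both calls held without each array in turn, with adjusted p of 0.000377 to 0.00345 in TLR4-/- and 0.00241 to 0.0304 in wild type. A row that reads Psme2 together with the near-copy Psme2b behaved differently. It averaged 8.60 ± 0.04 in TLR4-/- I/R and 8.47 ± 0.16 in TLR4-/- sham, and 8.61 ± 0.16 in wild-type I/R and 8.47 ± 0.23 in wild-type sham (SD), so that its I/R minus sham differences, 0.13 in TLR4-/- and 0.15 in wild type, were within the spread of the sham arrays. That row carries 2 symbols and was not tested.

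Psme1 had 11.02, 10.91 and 10.98 on the TLR4-/- I/R arrays, against 10.32, 10.79 and 10.61 on the TLR4-/- sham arrays. In wild type it had 10.67, 10.83, 10.83 and 10.88 after I/R, against 10.59, 10.73, 10.22 and 10.76 after sham. The groups were separate in TLR4-/- and overlapped in wild type. The log2 change of Psme1 was 0.40 ± 0.15 in TLR4-/- (adjusted p = 0.124, limma) and 0.23 ± 0.13 in wild type (adjusted p = 0.316, limma). The promoter window of Psme1 above holds a match to the interferon-stimulated response element, and that of Psme2 holds none. Of the genes with a window, 13 were called in at least 1 genotype, and 2 of these held that element. It was in 3 of the 26 genes called in neither. For the antioxidant response element the counts were 0 of 13 and 6 of 26. Whether such matches bear on the change of any gene was not tested. Psme3, the nuclear PA28 gamma subunit, changed by 0.33 ± 0.21 in TLR4-/- and 0.39 ± 0.18 in wild type. Psme4, the PA200 activator, changed by 0.07 ± 0.12 in TLR4-/- and 0.07 ± 0.10 in wild type. Neither was called.

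**Figure D4:**
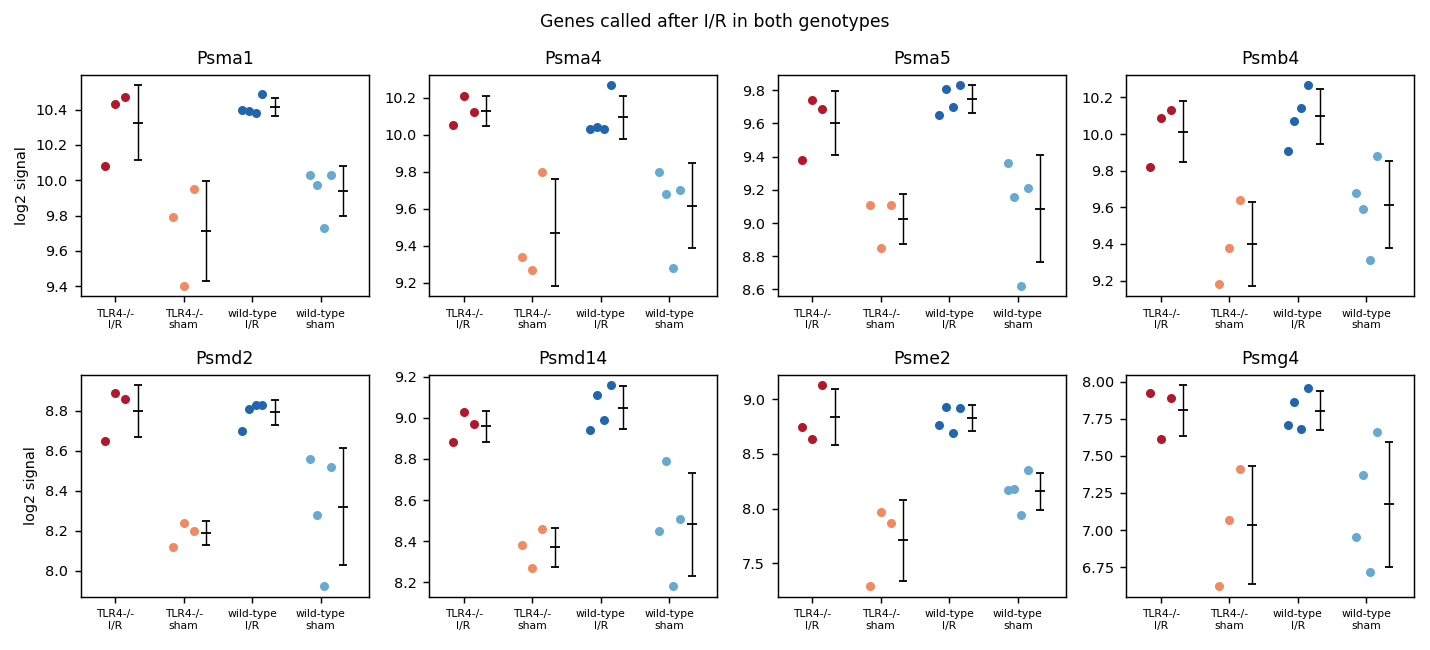
Log2 signal (y axis) of the 8 genes called after I/R in both genotypes, with 1 point per array and the mean and SD beside each group (n = 3 for the TLR4-/- groups, n = 4 for the wild-type groups). In each panel every I/R array lies above every sham array of the same genotype.

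The chaperones guide assembly and are not kept in the finished particle. Psmg4, with Psmg3, helps to build the alpha ring, and it was the chaperone gene that rose. It had 7.92, 7.61 and 7.89 on the TLR4-/- I/R arrays, against 6.62, 7.07 and 7.41 on the TLR4-/- sham arrays. In wild type Psmg4 had 7.71, 7.86, 7.68 and 7.96 after I/R, against 6.95, 7.37, 6.72 and 7.66 after sham. I/R arrays were above sham arrays in both genotypes, by a few hundredths in wild type, where the sham arrays were widely spread. The log2 change was 0.78 ± 0.22 in TLR4-/- (adjusted p = 0.0373, limma) and 0.63 ± 0.19 in wild type (adjusted p = 0.046, limma). The TLR4-/- call was lost without any of the 3 I/R arrays or sham array A or B (up to 0.192). The wild-type call was lost in 11 of the 14 fits without 1 array (up to 0.142) and held without wild-type sham array D, TLR4-/- sham array A and TLR4-/- sham array D. It was also lost with array weights (0.0776) and in a fit of only the groups compared (0.0536). Psmg1, which pairs with Psmg2 at an early step of the alpha ring, changed by 0.52 ± 0.18 in TLR4-/- and 0.40 ± 0.16 in wild type. Psmg3 changed by 0.43 ± 0.16 in TLR4-/- and 0.37 ± 0.14 in wild type, and Psmg2 by 0.05 ± 0.25 in TLR4-/- and 0.08 ± 0.22 in wild type. The chaperones of the 19S base were Psmd10, with log2 changes of 0.53 in TLR4-/- and 0.10 in wild type, Psmd9, with 0.01 in TLR4-/- and 0.32 in wild type, and Psmd5, with 0.03 in TLR4-/- and 0.00 in wild type. None of these 6 genes was called with all arrays. Without wild-type sham array A, Psmd9 (adjusted p = 0.00754, limma) and Psmg3 (0.0418) were called in wild type, and without TLR4-/- sham array B Psmg1 was called in TLR4-/- (0.0432).

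Psmf1, an inhibitor of the core in vitro, changed by -0.03 ± 0.21 in TLR4-/- and 0.12 ± 0.18 in wild type. Psme3ip1, which binds PA28 gamma, changed by -0.01 ± 0.13 in TLR4-/- and -0.07 ± 0.11 in wild type. Neither was called. Psmc3ip had 6.69, 6.67 and 6.62 on the TLR4-/- I/R arrays, against 6.05, 6.28 and 5.83 on the TLR4-/- sham arrays. In wild type it had 6.74, 6.40, 7.07 and 7.29 after I/R, against 6.23, 6.43, 5.75 and 6.16 after sham, with 1 I/R array below the highest sham array. It changed by 0.61 ± 0.20 in TLR4-/- (adjusted p = 0.0818, limma) and by 0.73 ± 0.18 in wild type (adjusted p = 0.013, limma). The wild-type call was lost without I/R array D (adjusted p = 0.0545). In TLR4-/- it was called in a fit of only the groups compared (0.0295) and without wild-type I/R array B (0.0476). Leaving Psmc3ip out of the set gave 12 of 46 genes called in TLR4-/- and 10 of 46 in wild type.

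The size of the I/R change was not shown to differ between the genotypes for any of the 47 genes. For the TLR4-/- change minus the wild-type change, 0 genes were called (limma), against a background of 0% of all genes. At an unadjusted p under 0.05 there were 0 of the 47, against 762 of all genes (3.82%). The median difference over the set was 0.08, and 32 of the 47 differences were above 0, against 53.4% of all genes. The 95% confidence intervals ran from -1.07 to 0.98 over the set with a median half-width of 0.48, and none excluded 0. Differences of about that half-width, and larger ones after adjustment over all genes, could have been missed with these arrays. Psme2 had the largest difference, 0.46 (95% interval -0.02 to 0.95). Psmd10 followed at 0.43 (-0.13 to 0.98), and Psmd9 was at the other end at -0.31 (-0.85 to 0.23).

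These differences rested in part on wild-type sham array C. Without it the median difference over the set was 0.19, with 38 of the 47 above 0. No gene was called, against 0.00502% of all genes, and 4 (Psmb2, Psmd10, Psmd13 and Psme2) were under an unadjusted p of 0.05, against 6.21% of all genes. The difference of Psmb2 was then 0.43 (95% interval 0.11 to 0.76), against 0.29 (-0.11 to 0.70) with all arrays, and its adjusted p was 0.757 (limma). Without this array and TLR4-/- I/R array D together the median was 0.16, with 35 above 0. Leaving out 1 of the other 13 arrays gave medians of 0.03 to 0.11.

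Between genotypes after I/R, 0 of the 47 genes were called (limma), against 0.0201% of all genes, and 0 were under an unadjusted p of 0.05, against 8.47%. The median difference, TLR4-/- minus wild type, was -0.06 with 16 genes above 0, against 55.9% of all genes. Without TLR4-/- I/R array D the median was -0.09 with 14 above 0, and without TLR4-/- I/R array B it was 0.01 with 26 above 0. Psme2 was level, at 8.84 ± 0.25 in TLR4-/- I/R and 8.83 ± 0.12 in wild-type I/R (SD). After sham, 0 were called, against 0.00502% of all genes, and 2 were under an unadjusted p of 0.05, against 5.24%. These were Psmd10, the oncoprotein gankyrin and a chaperone of the base, and Psme2. Psmd10 was at 8.74, 8.35 and 8.91 on the TLR4-/- sham arrays, against 9.39, 9.65, 8.85 and 8.87 on the wild-type sham arrays, which overlap. Its difference was -0.52 ± 0.19 and that of Psme2 -0.45 ± 0.16, each with an adjusted p of 0.92 (limma). The median sham difference over the set was -0.13, with 39 of 47 genes below 0 and 8 above, against 53.4% of all genes above 0. Without wild-type sham array C the median sham difference was -0.23, with 43 genes below 0 and 4 above, and Psmb2 was at -0.36 ± 0.11 (SE), against -0.22 ± 0.14 with all arrays. No gene was then called, against 0.0502% of all genes, and 12 were under an unadjusted p of 0.05, against 9.69% of all genes, with a lowest adjusted p of 0.296 (limma, Psmd10). Leaving out TLR4-/- I/R array D as well gave the same median and counts. Leaving out 1 of the other 6 sham arrays gave medians of -0.15 to -0.06. These comparisons use the same sham arrays as the I/R comparisons above.

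Some genes that work with the proteasome but carry no Psm symbol were called. Their calls are given from the fit of all arrays alone. Of 17 subunits and partners of the 26S particle (the core with its 19S caps), 13 were measured, and 2 rose in TLR4-/- and 3 in wild type. Over all genes, 5.04% were called higher in TLR4-/- and 6.15% in wild type, or 8.25% and 9.97% without dim genes. Usp14, a deubiquitylase docked on the regulatory particle, averaged 8.23 ± 0.12 in TLR4-/- I/R and 7.73 ± 0.09 in TLR4-/- sham, and 8.32 ± 0.13 in wild-type I/R and 7.72 ± 0.07 in wild-type sham (SD). It rose by 0.50 ± 0.12 (SE) in TLR4-/- (adjusted p = 0.0119, limma) and by 0.60 ± 0.10 in wild type (adjusted p = 0.000702, limma). Sem1, a small lid subunit, rose by 0.98 ± 0.23 in TLR4-/- (adjusted p = 0.012, limma) and by 0.65 ± 0.20 in wild type (adjusted p = 0.0482, limma). The wild-type I/R and sham arrays of Sem1 overlapped, with an SD of 0.49 after sham. Uchl5, the other docked deubiquitylase, changed by 0.78 ± 0.24 in TLR4-/- (adjusted p = 0.0513, limma) and rose by 0.82 ± 0.20 in wild type (adjusted p = 0.0164, limma). Over the 13 genes the median log2 change was 0.18 in TLR4-/- and 0.15 in wild type, with 8 above 0 in each. Of all genes, 43.8% were above 0 in TLR4-/- and 37.2% in wild type.

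Of 8 genes of the Cdc48 (p97) unfoldase, which extracts ubiquitylated proteins ahead of the proteasome, none was called in TLR4-/- and Ubxn1, a cofactor, rose in wild type (0.52 ± 0.14, adjusted p = 0.0211, limma). The shares of all genes called higher were 5.04% in TLR4-/- and 6.15% in wild type. The unfoldase gene itself, Vcp, changed by 0.08 ± 0.14 in TLR4-/- and 0.07 ± 0.12 in wild type. Of 7 regulators of proteasome gene transcription, 6 were measured and none was called in either genotype. They include Nfe2l1, which encodes NRF1, the factor that raises proteasome genes when the protease is inhibited, at -0.11 ± 0.13 in TLR4-/- and 0.10 ± 0.11 in wild type. Nfe2l2, which encodes NRF2, was at -0.13 ± 0.11 in TLR4-/- and -0.11 ± 0.09 in wild type. Of 6 ubiquitin and ubiquitin-activating enzyme genes, 1 was measured through a row of its own, and it was not called.

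Other gene groups differed between I/R and sham in the same samples. Of all genes, 5.04% were called higher in TLR4-/- and 6.15% in wild type. Those called lower were 3.13% in TLR4-/- and 3.63% in wild type. All 19 measured mitosis genes were called higher after I/R in both genotypes, with median log2 changes of 2.77 in TLR4-/- and 3.20 in wild type. All 21 measured interferon-stimulated genes were called higher in both, with medians of 2.66 in TLR4-/- and 1.53 in wild type. Of 10 measured monocyte markers, 5 rose in TLR4-/- and 7 in wild type. The mean signal of these 10 genes ran from 6.08 to 6.37 on TLR4-/- I/R arrays, against 4.71 to 5.02 on TLR4-/- sham arrays, and from 6.28 to 6.85 on wild-type I/R arrays, against 5.00 to 5.17 on wild-type sham arrays. The monocyte receptor gene Ccr2 was not called (-0.22 ± 0.16 in TLR4-/- and 0.41 ± 0.14 in wild type). Chil3 and S100a6 had mean signals over all arrays at or below the olfactory receptor level. Of the 11 microglial markers, 6 fell in TLR4-/- and 8 in wild type, with median log2 changes of -0.38 in TLR4-/- and -0.42 in wild type. At or below the olfactory receptor level were 9 of 10 neutrophil markers, 8 of 10 measured lymphocyte markers and 6 of 15 measured markers of neurons, other glia and vessels. Among the neutrophil markers, Csf3r fell in TLR4-/- (-0.55 ± 0.16) and was not called in wild type (-0.37 ± 0.14). Cxcr2, 1 of the dim ones, was not called in TLR4-/- (-0.11 ± 0.19) and rose in wild type (0.54 ± 0.16). The mean signal of the 10 neutrophil markers ran from 4.22 to 4.36 on TLR4-/- I/R arrays, against 4.23 to 4.47 on TLR4-/- sham arrays, and from 4.05 to 5.02 on wild-type I/R arrays, against 4.20 to 4.48 on wild-type sham arrays. The vessel marker Pecam1 fell in TLR4-/- (-1.09 ± 0.18) and in wild type (-0.93 ± 0.16). The vessel marker Cdh5 was not called in TLR4-/- (0.48 ± 0.18) and rose in wild type (0.67 ± 0.15). Flt1, also from vessels and dim, was not called in TLR4-/- (0.32 ± 0.15) and rose in wild type (0.42 ± 0.13). Of the 6 markers of border-associated macrophages, 1 fell in TLR4-/- and none was called in wild type. The part of these changes in the proteasome values was not tested. In bulk samples such as these, more cells of a type and more RNA per cell cannot be told apart.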

How the data were processed

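Each array row has 1 log2 signal per sample, which the authors made with RMA (background correction, quantile normalization and probe summary) in oligo, per the submitters' processing notes (versions not given). Medians of the arrays were 4.93 to 5.12, and the signals were used without further scaling. Every value column belonged to 1 of the 14 samples.

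Of 35556 rows, 21789 carried 1 gene symbol in the platform annotation. The row with the highest mean stood for each gene, which gave 19938 genes. The 47 proteasome genes had 53 rows, and 5 of them had several. A row shared by Psme2 and Psme2b was not used in tests.

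The model, fitted to all arrays with a mean for each of the 4 groups, used limma 3.58.1 (R 4.3.3), the package the series description names. P-values were adjusted by Benjamini-Hochberg over all genes and genes under 0.05 were called. The fit was also run on simulated data with independent noise and no array-wide shifts. That run cannot speak to shifts of single arrays such as wild-type sham array C. By the rule set for naming, genes of the set called in a comparison are given on every array with full statistics, and Psmb8, Psmb9 and Psmb10 stand beside them. Called genes of the proteasome-pathway lists are named, at most 4 a list. Other genes named with values were chosen after their values were seen, and the remaining lists are given by counts. The genes and lists were chosen with earlier results of these data known.

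The labels do not say that the letters of the sample titles mark pairs, and the arrays were not paired in the main fit. Over 18 same-letter pairs, deviations from the group means correlated at -0.099 to 0.281, and 3 pairs were above 0.1. Pairs of different letters ran from -0.260 to 0.237. These correlations cannot exclude a shared batch or day. Alternatives were array centring, leaving out dim genes, trended and robust variance, array weights, the letter as a replicate block, the mean of a gene's rows, a fit of only the groups compared, and leaving out each array. Centring on all rows, and leaving out wild-type sham array C with TLR4-/- I/R array D, were added after seeing the data. The number of arrays limits the precision.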

Additional observations from a re-analysis of the deposited data

Results flagged for a closer look

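In 6 of 94 groups of 4 arrays tested (47 genes in the wild-type I/R and sham groups), 1 array lay far from the other 3, where chance gives about 1 in 20 such groups. Wild-type sham array C was the lowest of its group for the alpha-ring gene Psma2 (9.14, against 9.78 to 9.85 on the others), for the ATPase gene Psmc3 (8.76, against 9.09 to 9.11) and for the non-ATPase gene Psmd8 (8.71, against 9.51 to 9.58). None of these 3 genes was called after I/R. Wild-type I/R array D was the highest of its group for Psma4 (10.27, against 10.03 to 10.04). Wild-type I/R array A was the lowest of its group for Psmd2 (8.70, against 8.81 to 8.83). Wild-type sham array A was the highest of its group for the chaperone gene Psmd9 (7.07, against 6.20 to 6.23). The TLR4-/- groups, with 3 arrays each, were not tested for such gaps.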

How the results depend on the processing

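Leaving out each array in turn gave 1 to 13 genes called higher after I/R in TLR4-/- (12 with all arrays) and 3 to 12 in wild type (11 with all arrays). Over all 19938 genes these fits called 658 to 1157 higher in TLR4-/- and 931 to 1282 in wild type. Leaving out wild-type sham array C and TLR4-/- I/R array D together gave 10 in TLR4-/- and 3 in wild type. The cause was not tested beyond the fewer arrays of these fits. The other 8 alternatives gave 10 to 14 in TLR4-/- and 8 to 12 in wild type. Over all genes these 8 fits called 959 to 1143 higher in TLR4-/- and 1152 to 1327 in wild type. The genes tested were 12533 where dim genes were left out and 19938 otherwise. With the replicate block the counts were 13 in TLR4-/- and 11 in wild type, where 1016 and 1300 of all genes were called higher. The 11 included Psmd7 and not Psmd6. The TLR4-/- change minus the wild-type change, and the genotypes after I/R and after sham, had 0 genes called in every alternative run, the replicate block included. Without wild-type sham array C the median of the first of these was 0.19, against 0.08 with all arrays, and that of the sham comparison was -0.23, against -0.13. Of 529 values of single called genes under an alternative, 406 stayed called, 123 were no longer called and 0 changed direction. Psme2 in both genotypes, and Psma5 and Psmd14 in wild type, were called in every alternative run.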
